A study of Arabidopsis thaliana with 9 samples.

Results

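The transcriptome of wild-type Arabidopsis thaliana rosettes, the leaf-bearing shoots of the vegetative plant, was described from the 3 wild-type libraries of a series of 9, chosen by the genotype in their labels. All plants of this group were of the ecotype Col-0, carried no mutant allele, were 21 days old and were grown on soil in days of 16 hours of light and nights of 8 hours. The other 6 libraries came from the insertion lines pdx3-3 and pdx3-4 and were not compared here. Each library was made from entire rosettes, so that blade, petiole, vein, epidermis, shoot apex and young leaves were measured together. The labels call the 3 samples biological replicates. The number of plants behind a sample and the hour of harvest are not stated in the labels, so the spreads below measure the difference between these samples, whatever mix of plants and handling they hold. Levels are given as CPM, the count of a gene over the total count of its library times 1000000, and spreads are standard deviations over the 3 libraries (n = 3).

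A leaf is built around the chloroplast. Its light-harvesting proteins bind chlorophyll and feed excitation to photosystems I and II, electron transfer and ATP synthase turn it into NADPH and ATP, and the Calvin cycle uses both to fix CO2 through Rubisco. When Rubisco takes oxygen in place of CO2, photorespiration recovers the carbon through peroxisomes and mitochondria. Most proteins of these pathways are encoded in the nucleus, often by several gene copies (paralogs), and the nuclear transcripts carry the polyA tail by which RNA was selected here.

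Total counts were 19427283, 21938941 and 18689726 in libraries 1, 2 and 3, so that 1 count equals 0.0515, 0.0456 and 0.0535 CPM and 3 counts, the limit that a count of 0 allows, equal 0.154, 0.137 and 0.161 CPM. Library 3 stood apart from the other two. The chi-square statistic per degree of freedom over all genes with counts, which sampling noise alone would leave near 1, was 4.78 between libraries 1 and 2, 12.0 between 1 and 3 and 13.1 between 2 and 3. Among the 10571 genes with a mean of at least 10 CPM, the median absolute log2 ratio was 0.08 between libraries 1 and 2, 0.15 between 1 and 3 and 0.16 between 2 and 3. No pair agreed within sampling noise, so all were kept as separate replicates. The median CV, the biological coefficient of variation and the number of genes at least 2-fold apart are given with and without library 3, and gene lists and genes by their value in each library.

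Few genes held most of the counts. Of 33602 loci, 17121 had a mean of at least 1 CPM, 10571 of at least 10 CPM, 1390 of at least 100 CPM and 107 of at least 1000 CPM, while 11112 had no count in any library. The 107 genes of at least 1000 CPM took 38.5% of all counts. The 10 most abundant genes took 12.8%, 13.4% and 13.4% of the counts of libraries 1, 2 and 3 (13.2% ± 0.343), and the 100 most abundant took 37.3%, 38.2% and 37.7% (37.7% ± 0.449). The 350 most abundant genes together held 50% of the counts. These shares differed little between libraries: the lowest and the highest library were within 1 percentage point of each other.

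**Figure D1:**
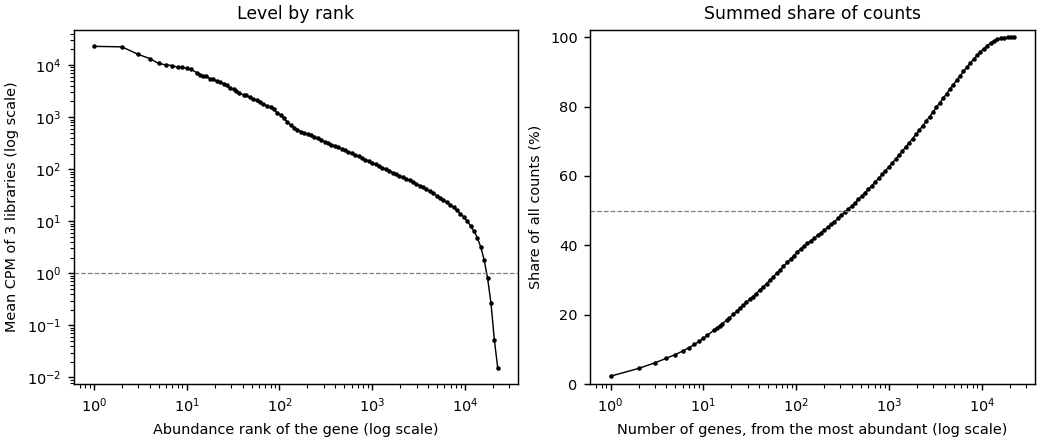
Left, mean CPM of the 3 wild-type libraries against abundance rank, both on log scales, with a dashed line at 1 CPM. Right, share of all counts in percent held by the most abundant genes together, against their number on a log scale, with a dashed line at 50%, which the curve crosses at 350 genes.

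The most abundant genes were genes of photosynthesis. The listed nuclear genes of photosynthesis and photorespiration, 109 loci all above 1 CPM, took 32.7%, 33.7% and 33.1% of the counts of libraries 1, 2 and 3 (33.2% ± 0.515). They made up 10 of the 10 most abundant genes, 23 of the top 25, 44 of the top 50 and 70 of the top 100. The 20 genes of the light-harvesting antenna alone took 13.3%, 13.9% and 14.0% (13.7% ± 0.366), more than the 24 Calvin cycle genes with 8.06% ± 0.165. Nuclear genes of photosystem II took 3.78% ± 0.0632, those of photosystem I 3.36% ± 0.0552, those of electron transfer and ATP synthase 1.72% ± 0.0438, and photorespiration 2.51% ± 0.209.

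RBCS1A, a small subunit of Rubisco (AT1G67090, chr1:25048158-25049667 in TAIR10.1), had the highest count, with 21989.8, 22958 and 23659 CPM in libraries 1, 2 and 3. LHCB1.3 (CAB1, AT1G29930, chr1:10477885-10479114), a major antenna protein of photosystem II, followed with 21288, 22524 and 23228 CPM. The ranges of the pair overlapped, and LHCB1.3 was the lower of them in each library. A long transcript gives more reads than a short one at the same number of molecules, so levels of different genes were compared per kb of the longest annotated transcript. On that scale the order of the pair turned, with 18168 ± 798 CPM per kb for LHCB1.3 and 18035 ± 661 CPM per kb for RBCS1A, a difference smaller than either SD. Rubisco activase (RCA), which frees Rubisco of inhibiting sugar phosphates, had the next highest count with 16461, 16827 and 14929 CPM and rank 6 per kb with 8085 ± 506 CPM per kb.

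**Figure D2:**
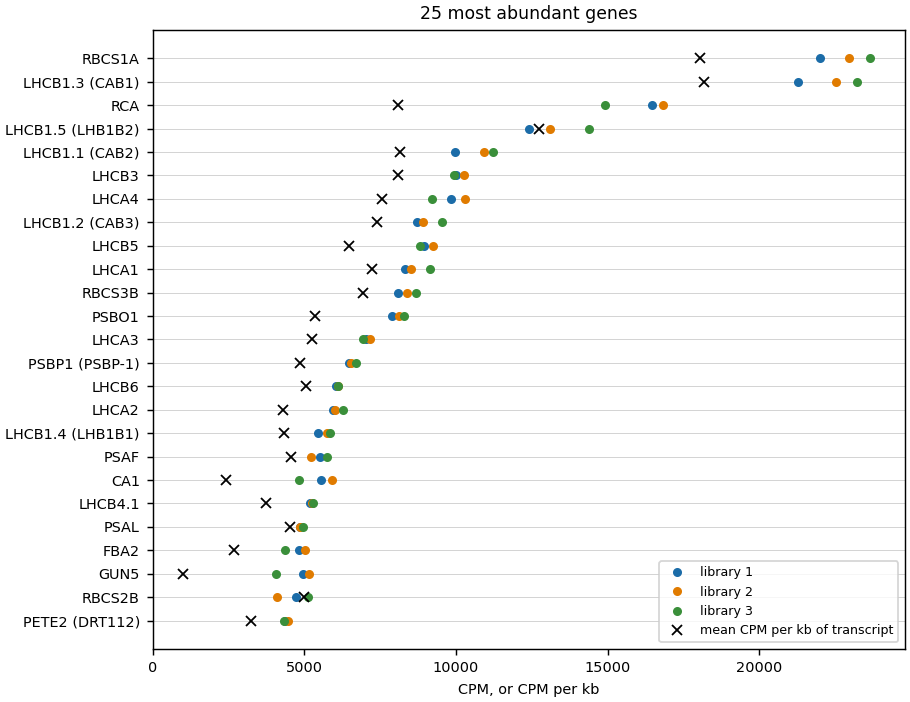
CPM of the 25 most abundant genes in each wild-type library (coloured points) and their mean CPM per kb of the longest annotated transcript (crosses), on a linear axis. RBCS1A and LHCB1.3 stand above the rest on both scales, and RCA has the widest gap between the scales, from 16072 CPM to 8085 CPM per kb.

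The 5 LHCB1 genes code for nearly the same protein. LHCB1.1 (CAB2), LHCB1.2 (CAB3) and LHCB1.3 lie side by side on chromosome 1, and LHCB1.4 and LHCB1.5 lie side by side on chromosome 2. LHCB1.1 and LHCB1.2 code for identical proteins and their coding sequences are 95.6% identical. The opening 90 coding bases of the 3 genes on chromosome 1 are shown because they hold 9 of the 47 positions, of 804, at which the coding sequences differ, and such positions are what lets a read be placed. Capitals mark the differing bases, and the coordinates are chr1:10475803-10475892 (minus strand), chr1:10473157-10473246 (minus strand) and chr1:10478071-10478160 (plus strand) in TAIR10.1, from RefSeq.
LHCB1.1: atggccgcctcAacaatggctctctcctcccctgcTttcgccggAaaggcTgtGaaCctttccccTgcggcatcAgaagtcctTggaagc
LHCB1.2: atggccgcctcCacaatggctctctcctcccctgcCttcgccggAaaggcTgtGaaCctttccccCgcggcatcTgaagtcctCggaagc
LHCB1.3: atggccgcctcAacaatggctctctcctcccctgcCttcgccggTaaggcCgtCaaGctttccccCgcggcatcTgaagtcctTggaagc

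The copies had unequal counts. LHCB1.3 held 36.0%, 36.0% and 35.3% of the summed CPM per kb of the LHCB1 family in the 3 libraries, LHCB1.5 held 25.04% ± 0.624, LHCB1.1 16.0% ± 0.291, LHCB1.2 14.6% ± 0.254 and LHCB1.4 8.53% ± 0.175. The order was the same in every library, and each step in it was larger than the SDs of the shares. Depending on the gene, 10.6% to 20.5% of the 50-base windows of an LHCB1 transcript also occurred in another locus. The sources used here do not say how reads that match several loci were counted, and an error from this would not show in the spread between replicates.

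The 20 antenna genes ranged from 85.3 ± 13.4 CPM per kb for LHCB4.3 to 18168 ± 798 CPM per kb for LHCB1.3. LHCB3 had 9997, 10271 and 9927 CPM, LHCB5 8943, 9261 and 8828 CPM and LHCB6 6035, 6123 and 6115 CPM. Of the photosystem I antenna, LHCA1 to LHCA4 had means of 6076 to 9782 CPM, whereas LHCA5 and LHCA6, minor antenna proteins that link photosystem I to other complexes, had 223 ± 8.76 CPM and 200.1 ± 19.5 CPM, or 227 ± 8.94 CPM per kb and 172 ± 16.8 CPM per kb against 7221 ± 361 CPM per kb for LHCA1. LHCB4.3, a variant of the antenna protein CP29, had 96.8, 132 and 109 CPM and 85.3 ± 13.4 CPM per kb, against 3755 ± 39.0 CPM per kb for LHCB4.1. The spread of the antenna genes was small: the median CV of the 20 genes (the SD over the mean of the 3 libraries) was 3.72%. It was 7.54% for all genes of at least 10 CPM and 5.11% for the 107 genes of at least 1000 CPM.

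The 14 nuclear photosystem II genes ranged from 12.6 ± 0.514 CPM per kb for PSBP2 to 5368 ± 132 CPM per kb for PSBO1, and the 13 of photosystem I from 827 ± 76.6 CPM per kb for PSAE2 to 4568 ± 217 CPM per kb for PSAF. PSBO1, which stabilises the manganese cluster that splits water, had 7885, 8121 and 8280.3 CPM, and PSBP1 (PSBP-1), its partner in the oxygen-evolving complex, had 6465, 6539 and 6701 CPM. In photosystem I, PSAF, the docking subunit for plastocyanin, had 5523, 5221 and 5740.3 CPM and PSAL had 4856, 4854 and 4944 CPM. PSAG, with 3049, 3059 and 3084 CPM, was the steadiest photosystem gene of the list at a CV of 0.591%. PSBS, which triggers the dissipation of excess light, had 2016, 2192 and 1856 CPM. PSB27 and PSB28, which assist the assembly of photosystem II, had 363 ± 13.6 CPM per kb and 234 ± 4.88 CPM per kb, against 5368 ± 132 CPM per kb for PSBO1.

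The 4 Rubisco small subunit genes were unequal. RBCS1A held 57.7%, 59.6% and 57.7% of the summed CPM per kb of the family, RBCS3B 22.4% ± 0.348, RBCS2B 16.1% ± 1.402 and RBCS1B 3.19% ± 0.0579. By coding length the shares were 61.0%, 21.7%, 12.4% and 4.96%, with the same leading member. RBCS1B, RBCS2B and RBCS3B lie in a row on chromosome 5. RBCS1B and RBCS2B differ at 15 of 546 coding positions, of which 5 fall in the opening 90 bases, at chr5:15385066-15385155 (minus strand) and chr5:15381889-15381978 (minus strand); they are shown, with the differing bases in capitals, because the pair shares most of its sequence and yet had unlike levels.
RBCS1B: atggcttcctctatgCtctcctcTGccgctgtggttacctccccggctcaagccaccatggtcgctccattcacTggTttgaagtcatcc
RBCS2B: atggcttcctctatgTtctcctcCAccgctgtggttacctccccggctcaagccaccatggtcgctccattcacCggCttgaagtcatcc

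RBCS1B had 1855, 1813 and 1942 CPM and RBCS2B 4728, 4113 and 5135 CPM in libraries 1, 2 and 3. The ranges were far apart, and RBCS2B also varied more, with a CV of 11.04% against 3.51%. Per kb of transcript the difference was 987 ± 34.6 CPM per kb for RBCS1B against 4983 ± 549.9 CPM per kb for RBCS2B. The longest annotated transcripts have 1894 and 935 bases, while both coding sequences have 546. By coding length the means were 3425 and 8532 CPM per kb, a smaller difference. Of their windows, 14.0% and 21.4% occurred in another locus. The limit given for LHCB1, that the counting of reads matching several loci is not known, holds for this pair too.

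The 24 Calvin cycle genes ranged from 4.07 ± 0.983 CPM per kb for TKL2 to 18035 ± 661 CPM per kb for RBCS1A. Among the enzymes other than Rubisco were the plastid aldolase FBA2 with 4819, 5034 and 4369.7 CPM, the glyceraldehyde-3-phosphate dehydrogenase subunits GAPA2 with 3125 ± 204 CPM, GAPB with 2699 ± 273 CPM and GAPA1 with 2626 ± 195 CPM, and phosphoribulokinase (PRK), which makes the CO2 acceptor, with 2062 ± 158 CPM. Sedoheptulose bisphosphatase (SBPASE) had 1440.5, 1492 and 1253 CPM. CP12 proteins hold GAPDH and PRK inactive in the dark; CP12-1 had 543 ± 27.8 CPM, CP12-2 289.6 ± 21.4 CPM and CP12-3 3.32 ± 0.823 CPM. The Calvin cycle genes were lowest in library 3 in 14 of 24 cases and highest in library 2 in 14, beside 41.1% of all genes of at least 10 CPM lowest in library 3 and 26.1% highest in library 2.

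Apart from PGLP1, the photorespiration genes ranged from 13.8 ± 3.52 CPM per kb for GDCH2 to 1726 ± 133 CPM per kb for SHM1. SHM1, the mitochondrial serine hydroxymethyltransferase, had 3500.5, 3655 and 3141 CPM, and GLDP1, the P-protein of glycine decarboxylase, had 2767, 2959 and 2078 CPM. The peroxisomal glutamate-glyoxylate aminotransferase GGAT1 (GGT1) had 2266, 2612 and 2274 CPM, and the chloroplast enzymes that take back the released ammonium, GLN2 (GS2) and GLU1, had 2357, 2406 and 2195 and 2300.4, 2372 and 1871 CPM. Of all 23 genes, 17 were lowest in library 3, beside 41.1% of all genes of at least 10 CPM. In library 2, 18 of the 23 were highest, beside 26.1% of all such genes. The medians of log2(CPM over the mean of the 3 libraries) over the 23 genes were 0.02, 0.09 and -0.12. PGLP1, the phosphoglycolate phosphatase that opens the pathway, had 2.01, 1.28 and 1.28 CPM, and its neighbouring copy AT5G36790 had 2.52, 3.60 and 3.37 CPM. The coding sequences of the pair are both 1089 bases long and differ at 0 positions, and 94.1% and 96.3% of their transcript windows are shared, so no level is read from these counts.

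Few genes with nearly all windows shared with another locus had counts. The other locus may be a copy or an overlapping one. Of 22663 protein-coding genes with no 50-base window in another locus, 65.2% reached 1 CPM, with a median of 5.71 CPM. Of 155 genes with over 95% of their windows shared, 8 (5.16%) reached 1 CPM, 129 had no count in any library and the median was 0. MT1A, a metallothionein whose windows are all shared, had no count, while MT1C beside it had 10.3, 14.8 and 13.6 CPM. The coding sequences of the pair are 94.9% identical, and 0% of the windows of MT1C are shared. The shared windows of MT1A therefore lie in a locus other than MT1C. The part that the counting of shared reads had in these low values was not tested.

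Among the 50 most abundant genes, 6 were outside the photosynthesis and photorespiration lists. CA1, the chloroplast carbonic anhydrase that interconverts CO2 and bicarbonate, had 5558, 5910.3 and 4817 CPM. Of genes known from chlorophyll synthesis, GUN5, the H subunit of magnesium chelatase, had 4974, 5162 and 4068 CPM, and CRD1, the cyclase subunit that closes the isocyclic ring, had 3245, 3450.4 and 3253 CPM. AT1G74470, annotated as an oxidoreductase, had 2351, 2407 and 2305 CPM. THI1, which makes the thiazole ring of vitamin B1 and is used up in the reaction, had 2834, 2988 and 2753 CPM. TGG1, the myrosinase that releases mustard oils from glucosinolates when tissue is damaged, had 4302, 3509 and 4432 CPM. GUN5 and CA1 were lowest in library 3 and TGG1 in library 2.

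Genes with a shared protein name or function were described in 47 families with 205 members. Not all members of a family are paralogs: the superoxide dismutases join copper/zinc enzymes with iron and manganese enzymes. In the 15 families of 2 members the leading member holds at least 50% by arithmetic; of the 32 larger families, 20 had a single member with over 50% of the summed CPM per kb of the family and 12 had none. Over families of any size, 15 had a member over 75% and 7 had one over 90%, of which 4 were families of 2 members. The order of all members was the same in the 3 libraries in 34 families and the leading member in 44. By coding length in place of transcript length, the leading member was the same in 43 families; it changed to FSD1 among the superoxide dismutases, CESA1 among the cellulose synthases, ACT2 among the actins and SPSC among the sucrose-phosphate synthases. The SD of the leading share was at the median 0.772 percentage points and at most 7.84.

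**Figure D3:**
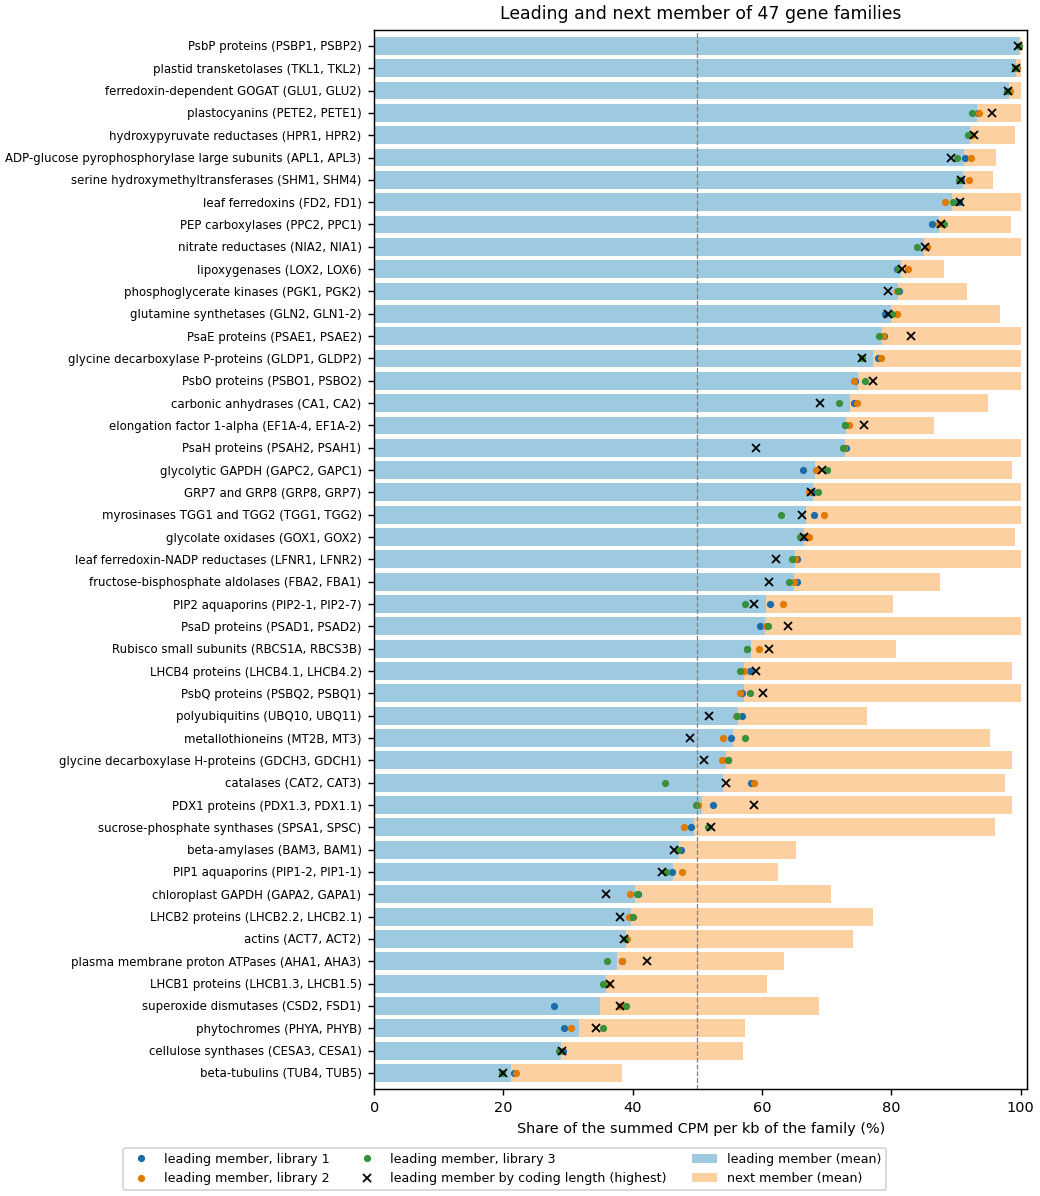
Share of the summed CPM per kb of each of 47 families held by its leading member (blue bar, mean) and next member (orange bar), with the leading member in each library as points and the highest share by coding length as crosses. The dashed line marks 50%, which the leading member passes in 20 of the 32 families with over 2 members and, by arithmetic, in the 15 families of 2; the points spread most for the catalases and the superoxide dismutases.

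Some families were carried by a single gene. PSBP1 held 99.7% ± 0.00814 of its pair, with PSBP2 at 12.1, 13.0 and 12.9 CPM. The plastid transketolase TKL1 held 99.3% ± 0.236 and the ferredoxin-dependent glutamate synthase GLU1 98.1% ± 0.183. PETE2 (DRT112), the major plastocyanin, held 93.2% ± 0.571, with 4363, 4473 and 4334 CPM against 239.6, 238 and 272 CPM for PETE1. HPR1, the peroxisomal hydroxypyruvate reductase, held 92.2% ± 0.279, and the starch enzyme subunit APL1 91.3% ± 1.11. SHM1 held 91.1% ± 0.772 of 7 serine hydroxymethyltransferases. PPC2, a PEP carboxylase that feeds carbon skeletons to amino acid synthesis, held 87.3% ± 0.939, and the nitrate reductase NIA2 held 85.0% ± 0.935, with 1257, 1351 and 1288 CPM against 208, 225 and 243 CPM for NIA1. In each of these the leading and next member were apart by many times the SD of the shares.

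Other families were shared. GAPA2, GAPA1 and GAPB, which form 1 enzyme, held 40.3% ± 0.664, 30.3% ± 0.763 and 29.4% ± 0.785. CESA3, CESA1 and CESA6, subunits of the cellulose synthase of growing walls, held 28.8% ± 0.315, 28.2% ± 0.582 and 17.8% ± 0.330, and CESA3 and CESA1 changed places with the length used. The actins ACT7 and ACT2, both vegetative, held 38.9% ± 0.1005 and 35.1% ± 0.576. ACT4 and ACT12, known from pollen, had means of 0.0839 and 0.0324 CPM, below the level of 3 counts. ACT11, ACT3 and ACT1 were well above that level, with means of 39.1, 39.4 and 23.6 CPM, so the low values are those of ACT4 and ACT12 alone. The light receptor PHYA held 31.7% ± 3.19 of the phytochromes and PHYB 25.6% ± 1.92. PHYA had 77.0, 77.9 and 87.3 CPM and PHYB 69.7, 65.2 and 56.7 CPM, so that library 3 had the highest PHYA and the lowest PHYB.

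Families of membrane and wall proteins were also divided. Of the PIP1 aquaporins, water channels of the plasma membrane, PIP1-2 held 46.2% ± 1.21 and PIP1-1 16.3% ± 0.934, and of the PIP2 aquaporins PIP2-1 held 60.6% ± 2.99. Of 11 plasma membrane proton ATPases, AHA1 held 37.6% ± 1.39, AHA3 25.8% ± 3.71 and AHA2 18.9% ± 0.826, while AHA6 had no count and AHA9 was below the level of 3 counts. The 9 beta-tubulins had the lowest leading share of the 47 families, with TUB4 at 21.1% ± 1.196 and TUB5 next at 17.3% ± 1.87. Of the sucrose-phosphate synthases, SPSA1 held 49.5% ± 1.896 and SPSC 46.6% ± 2.84, with SPSA1 at 49.0%, 47.9% and 51.6% and SPSC at 47.1%, 49.1% and 43.5% in libraries 1, 2 and 3, so that SPSC led in library 2, and it led over the 3 libraries when coding length was used. BAM3, the chloroplast beta-amylase of nightly starch breakdown, held 47.1% ± 0.322 of its family, and LOX2, the lipoxygenase of jasmonate synthesis, 81.5% ± 0.989.

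The electron transfer and ATP synthase genes ranged from 2.76 ± 0.536 CPM per kb for ATPC2 to 3259 ± 54.7 CPM per kb for PETE2. FD2, the major leaf ferredoxin, had 3047, 2587 and 2879.6 CPM against 279.7, 299 and 291 CPM for FD1, and held 89.4% ± 1.104 of the pair per kb. The ATP synthase subunit ATPC1 had 1599, 1703 and 1384 CPM and its copy ATPC2 3.04, 3.10 and 4.23 CPM, or 1027 ± 107 CPM per kb and 2.76 ± 0.536 CPM per kb. PGRL1A, of cyclic electron flow, had 710.5, 743 and 625 CPM and PGRL1B 31.5, 31.0 and 28.1 CPM, or 483 ± 42.6 CPM per kb and 20.3 ± 1.24 CPM per kb. The ferredoxin-NADP reductases were nearer each other, with LFNR1 at 65.1% ± 0.346 and LFNR2 at 34.9% ± 0.346 of the pair per kb.

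EF1A-4, an elongation factor of translation, held 73.004% ± 0.353 of its family. Its 3 relatives on chromosome 1 had 66.2%, 44.9% and 50.8% of their windows shared with another locus, against 6.01% for EF1A-4. All 4 code for the same protein. The limit given for PGLP1 touches this share too.

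In 3 families the leading member differed between libraries, the catalases, the superoxide dismutases and the sucrose-phosphate synthases. CAT2, the leaf catalase that removes photorespiratory hydrogen peroxide, had 1777, 1673 and 1421 CPM, and CAT3, known from veins and older leaves, had 1310.2, 1232 and 1857 CPM. CAT2 led in libraries 1 and 2 and CAT3 in library 3, with CAT2 shares of 58.3%, 58.7% and 45.0% per kb. The chloroplast iron superoxide dismutase FSD1 had 789.9, 466 and 561 CPM and the copper/zinc enzyme CSD2, which replaces it when copper is ample, had 413, 495 and 627 CPM. FSD1 led in library 1 and CSD2 in libraries 2 and 3, with CSD2 shares of 27.9%, 38.0% and 39.0%. The copper chaperone CCS, which loads CSD2, had 72.1, 86.7 and 98.2 CPM, lowest in the library where CSD2 was lowest. SPL7, the regulator of copper deficiency, had 20.9, 19.8 and 20.6 CPM. Of the 11 listed copper status genes, all above 1 CPM, 5 were highest in library 1, 2 in library 2 and 4 in library 3. Of all genes of at least 10 CPM, 32.5%, 26.1% and 41.4% were highest in these libraries. The copper list as a whole had no common order.

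The study's subject, vitamin B6, is made from sugar phosphates by PDX1 and PDX2, and its forms are interconverted by PDX3, SOS4 and PLR1. PDX3 (PPOX, AT5G49970, chr5:20329103-20333172), which oxidises the phosphorylated forms to pyridoxal 5'-phosphate, had 90.1, 88.9 and 78.7 CPM. The catalytic PDX1.3 (RSR4) had 191, 201 and 175 CPM and PDX1.1 121, 142 and 124 CPM. Per kb they were close, with 50.8% ± 1.4001 and 48.0% ± 1.57 of the family, and by coding length 58.7% and 40.1%. Of the windows of PDX1.1, 34.0% occurred in another locus. PDX1.2, a relative without catalytic activity, had 4.22, 3.01 and 3.80 CPM. PDX2, the glutaminase partner, had 12.4, 12.5 and 11.4 CPM and 10.3 ± 0.507 CPM per kb, against 106 ± 7.45 CPM per kb for PDX1.3. The pyridoxal kinase SOS4 had 38.3, 40.2 and 39.9 CPM and the reductase PLR1 67.1, 71.0 and 59.2 CPM. The list as a whole took 0.0525% ± 0.00334 of the counts.

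Morning genes of the clock were all detected, while several evening genes were near the limit of counting. The plant clock runs through sets of repressors that peak one after another over the day. CCA1 had 142, 149 and 136 CPM and LHY 62.0, 63.1 and 57.0 CPM; both encode dawn repressors. LNK2, a co-activator of morning genes, had 490.3, 462 and 474 CPM, and PRR7, a daytime repressor, 159, 163 and 153 CPM. All 8 morning and day genes were above 1 CPM, from 28.1 CPM for RVE8 to 476 CPM for LNK2. Of 8 afternoon and evening genes, 5 were above 1 CPM. TOC1 had 8.44, 8.98 and 11.02 CPM, PRR5 1.08, 2.01 and 1.71 CPM and ELF4 0.103, 0.182 and 0.161 CPM, and FKF1, a blue-light receptor of the afternoon, had 0, 0.0456 and 0.0535 CPM. Summed over the lists, the morning and day genes had 1114, 1112 and 1054 CPM and the evening genes 52.3, 52.9 and 53.3 CPM. Of the 8 morning and day genes, 7 were highest in library 2, beside 26.1% of all genes of at least 10 CPM. In library 3, 7 of 8 were lowest (8 of 8 with TMM or median-of-ratios scaling), beside 41.1% of all such genes. The shifts were small, with medians of log2(CPM over the mean) of 0.02, 0.05 and -0.06. LNK2, the largest term of the sum, was the exception, highest in library 1.

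Genes that answer to touch, cold, darkness and starvation were measured as a check on the state of the plants. The 14 early stress and touch genes ranged from 0.190 ± 0.0551 CPM per kb for CBF1 to 62.6 ± 5.89 CPM per kb for TCH3. The touch genes TCH3, a calmodulin-like protein, and TCH4, a wall enzyme, had 134, 159 and 138 and 55.1, 60.8 and 72.9 CPM, and the cold regulators CBF1 and CBF2 had 0.154, 0.273 and 0.268 and 0.618, 1.37 and 0.642 CPM. Of the 14 early stress and touch genes, 12 were above 1 CPM and 9 of these were highest in library 2, beside 26.1% of all genes of at least 10 CPM. WRKY33, a regulator of defence, had 41.3, 68.5 and 51.3 CPM. Of the 5 dark and starvation genes, DIN6 (ASN1), an asparagine synthetase that is repressed by sugar, had 4.99, 6.20 and 9.203 CPM and DIN1 (SEN1) 8.90, 12.7 and 15.6 CPM. All 4 of these genes above 1 CPM were highest in library 3, beside 41.4% of all genes of at least 10 CPM.

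Myrosinases and their partners took 0.785%, 0.670% and 0.859% of the counts of libraries 1, 2 and 3. TGG2, the second myrosinase, had 2108, 1595 and 2717 CPM and, like TGG1, was lowest in library 2. TGG1 held 66.8% ± 3.48 of the pair per kb. ESM1, which favours isothiocyanates as the product, had 1079, 1271 and 1159 CPM, against 50.8, 45.5 and 31.6 CPM for ESP, which favours nitriles, and 77.0, 62.6 and 65.2 CPM for the nitrile specifier NSP1. PEN2, the myrosinase of living cells under attack, had 168, 166 and 133 CPM.

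The labelled tissue was checked against markers of other organs. In bulk tissue, fewer cells of a type and less RNA per cell cannot be told apart. Of 6 root markers, EXP7, IRT1 and PLT1 had no count, CASP1 and PHT1-1 were at or below 3 counts, and PYK10, a beta-glucosidase, had 42.9, 38.3 and 42.9 CPM. Of 5 seed markers, 4 had no count and CRA1 had 0.103, 0.0912 and 0.0535 CPM. Of 9 flower and floral transition markers, SOC1, an integrator of flowering signals, had 40.4, 47.04 and 39.3 CPM and AG 2.68, 3.65 and 2.301 CPM, and the other 7 had means under 1 CPM. The shoot meristem markers CLV3 and WUS had 0 to 1 count per library, and STM had 0.257, 0.319 and 0.696 CPM. SAG12, a marker of late senescence, had 0.103, 0 and 0 CPM.

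Markers of leaf cell types were present, and several moved with library 3. The 5 epidermis markers summed to 0.134%, 0.111% and 0.0885% of the counts of libraries 1, 2 and 3, falling in that order. The 6 phloem markers summed to 0.0481%, 0.0525% and 0.0695%, the 6 xylem markers to 0.00704%, 0.00620% and 0.0106% and the 5 cell division markers to 0.00459%, 0.00393% and 0.00670%, each highest in library 3. SUC2, the sucrose loader of phloem companion cells, had 162, 175 and 232 CPM, and KNOLLE, which builds the cell plate, had 16.6, 13.9 and 24.4 CPM. The sum of the 7 guard cell and stomatal lineage markers moved less, with 0.00682%, 0.00714% and 0.00744%. Of the 7, 4 were highest in library 3, beside 41.4% of all genes of at least 10 CPM. Their medians of log2(CPM over the mean of the 3 libraries) were -0.08, 0.04 and 0.17. The part of the cell types in the results below was not tested.

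The spread between libraries was small for most genes. The median CV of the 10571 genes of at least 10 CPM was 7.54%, with 1.82% and 22.8% at the 5th and 95th percentiles over all 3 libraries. Without library 3 it was 4.06%, and without library 1 or 2 it was 7.70% and 7.30%. The common biological coefficient of variation estimated by edgeR, which takes off counting error, was 0.123 with all libraries and 0.0695 without library 3. The highest library was at least 2-fold above the lowest for 106 genes (1.00%). Of these 106, 50 were highest in library 3, 42 in library 1 and 14 in library 2. Of all genes of at least 10 CPM, 41.4%, 32.5% and 26.1% were highest in libraries 3, 1 and 2. The number of genes at least 2-fold apart was 21 without library 3, 59 without library 1 and 74 without library 2. For a given gene, leaving a library out cannot raise this ratio, so these counts compare with each other but not with the 106.

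Transcript length also moved with the libraries. Among genes of at least 10 CPM, the quintile with the shortest transcripts had medians of log2(CPM over the mean of the 3 libraries) of -0.04, -0.04 and 0.06 in libraries 1, 2 and 3, and the quintile with the longest had 0.05, 0.00 and -0.05. Library 3 was thus highest for short transcripts and lowest for long ones. Its part in the gene group differences was not tested.

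Most ribosomal protein genes were highest in library 3. The 343 nuclear loci whose reference name holds "ribosomal protein" (among them LOS1, an elongation factor named by its domain), taken by name after the values were seen, summed to 3.53%, 3.44% and 4.25% of the counts. Of the 308 above 1 CPM, 277 were highest in library 3, beside 41.4% of all genes of at least 10 CPM, and the medians of log2(CPM over the mean) were -0.09, -0.17 and 0.23. With TMM or median-of-ratios scaling, 269 and 267 were highest in library 3. The quintile of shortest transcripts, taken over genes of at least 10 CPM, had a median of 0.06 in library 3. The part of transcript length in the ribosomal protein values was not tested. The chloroplast ribosomal protein RPS1 was an exception, with 618, 629 and 621 CPM.

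Genes of the cuticle, the wax and cutin layer made by the epidermis, were the converse. Of 25 listed, 23 were above 1 CPM; 22 of the 23 were highest in library 1 and 21 lowest in library 3, beside 32.5% and 41.1% of all genes of at least 10 CPM, with medians of 0.28, 0.01 and -0.37 on the log2 scale. The list was put together after genes of this kind were seen among the most variable, so its direction is a description. CER6 (KCS6), which elongates wax precursors, had 450.1, 377 and 249 CPM, and the related KCS5 had 61.2, 46.6 and 21.5 CPM. CYP86A4, a fatty acid hydroxylase of cutin synthesis, had 19.4, 12.9 and 4.87 CPM. MYB106, a regulator of cuticle and trichome formation, had 14.7, 11.9 and 4.71 CPM. All of these fell in the order of libraries 1, 2 and 3, and the epidermis markers ATML1, a regulator of epidermal identity, with 116, 97.0 and 79.1 CPM, and FDH with 361, 286 and 223 CPM did so too. PDF1, another epidermis marker, did not, with 200.03, 160.0 and 203 CPM. CER6 is itself among the epidermis markers, so the epidermis and cuticle values are not separate observations. The 3 trichome markers differed, with 23.5, 16.3 and 6.90 CPM for GL2 and 2.06, 1.82 and 0.910 CPM for GL1, both lowest in library 3, and 5.04, 7.38 and 5.19 CPM for TRY, an inhibitor of trichome formation, which was highest in library 2 and lowest in library 1.

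**Figure D4:**
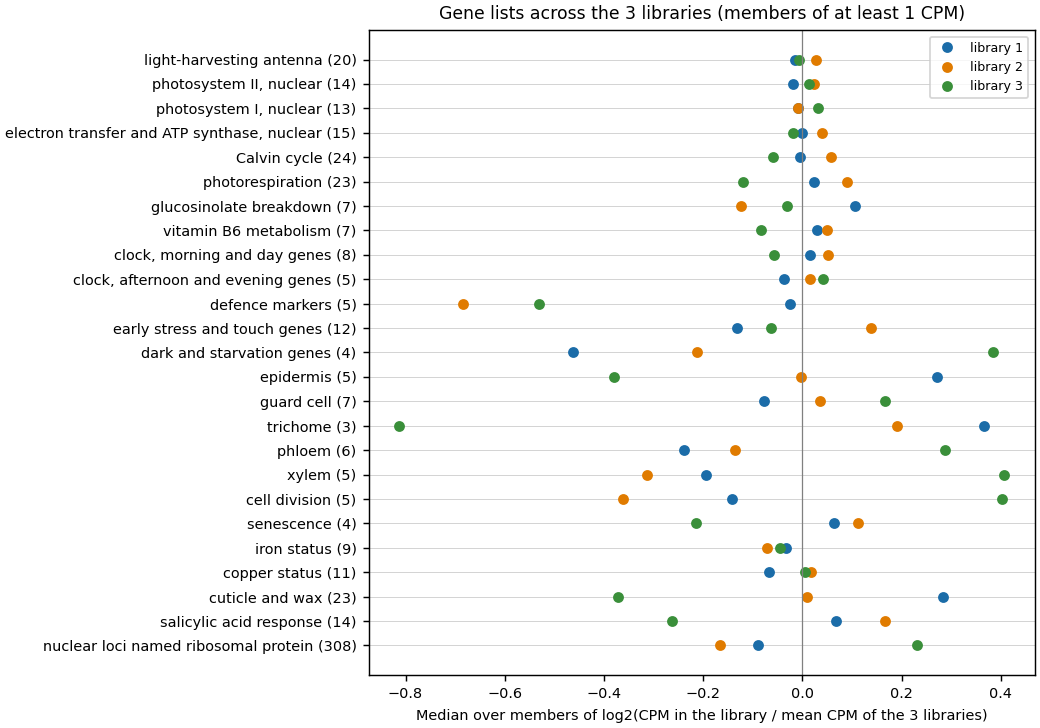
Median over the members of each list of log2(CPM in a library over the mean of the 3 libraries), for members of at least 1 CPM, whose number stands in brackets. Photosynthesis lists lie close to 0, while library 3 is highest for xylem, cell division, phloem and ribosomal protein genes and lowest for epidermis and cuticle genes and for the median of 3 trichome genes, of which TRY was lowest in library 1. CER6 is both an epidermis marker and a cuticle gene.

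The 10 most variable genes with a mean of at least 10 CPM, by the ratio of the highest to the lowest library, included genes of defence. The minimum was set on the mean, so a gene could pass it through a single high library. PR1, SAG13, VSP1 and AT4G09012 did so, each with the other libraries under 10 CPM. Their place in this list is therefore in part a product of the filter. PR1, a marker of salicylic acid defence, had 34.7, 3.83 and 0.0535 CPM, which are 675, 84 and 1 counts. SAG13, a senescence and defence gene, had 28.0, 2.92 and 1.39 CPM. Both were high in library 1 alone. GSTF7, a glutathione transferase, had 15.7, 12.4 and 3.75 CPM, and the nitrile specifier NSP4, which steers glucosinolate breakdown, 16.2, 10.9 and 3.00 CPM. VSP1, a storage protein induced by jasmonate, ran the other way, with 4.63, 6.79 and 21.3 CPM. AT2G33850 had 143, 104 and 29.1 CPM and GLC 15.6, 11.3 and 3.64 CPM, both lowest in library 3 like CYP86A4. AT4G09012 and the chloroplast locus ATCG00020, whose values are given further on, complete the 10.

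**Figure D5:**
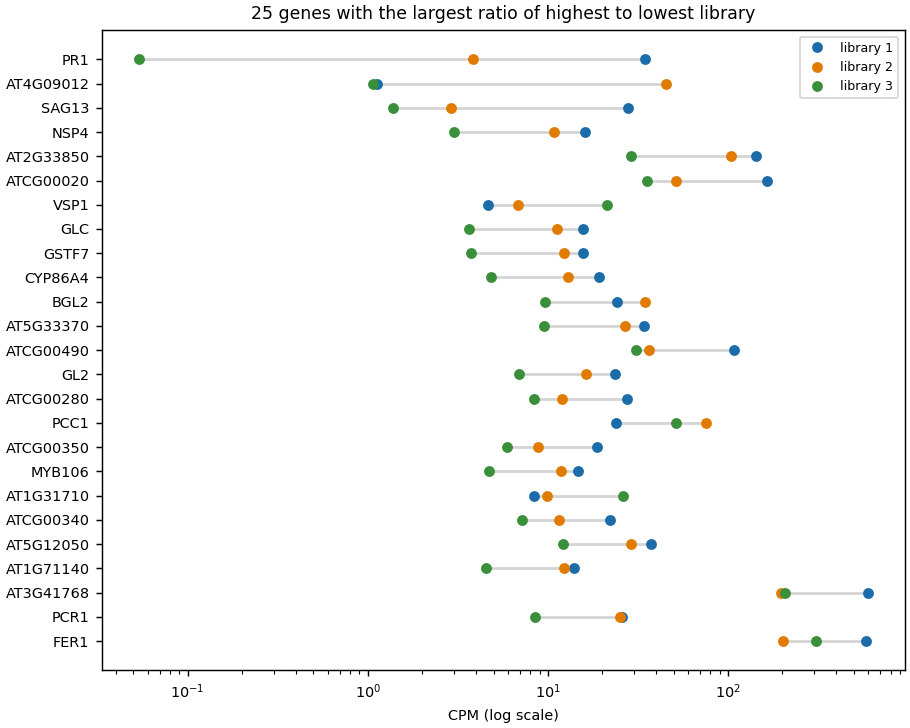
CPM on a log scale in each wild-type library for the 25 genes with the largest ratio of the highest to the lowest library among genes of at least 10 CPM. Library 3 (green) is the lowest point for most of them, and PR1 has the widest range.

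Genes of the salicylic acid response differed in which of libraries 1 and 2 was higher. PR2 (BGL2), a glucanase, had 24.1, 34.5 and 9.63 CPM and PR5 17.4, 23.4 and 12.3 CPM, both highest in library 2. PCC1 and LLP1 (AT5G03350) were lowest in library 1, with 23.8, 75.6 and 51.3 and 27.1, 69.0 and 57.7 CPM. FMO1 had 0.927, 0.0912 and 0 CPM and PAD3, the last enzyme of camalexin synthesis, 7.72, 1.32 and 0.428 CPM, both highest in library 1 like PR1. The signalling genes EDS1 and PAD4 differed less, with 22.3, 27.0 and 25.7 and 10.04, 11.8 and 8.45 CPM. Of the 14 listed genes above 1 CPM, 6 were highest in library 1, 8 in library 2 and 0 in library 3, beside 32.5%, 26.1% and 41.4% of all genes of at least 10 CPM. Of the same 14, 10 were lowest in library 3, 4 in library 1 and 0 in library 2, beside 41.1%, 23.0% and 35.9% of all such genes, with medians of log2(CPM over the mean) of 0.07, 0.17 and -0.26.

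AT4G09012, annotated as a mitochondrial ribosomal protein, had 1.13, 45.3 and 1.07 CPM, high in library 2 alone. The gene next to it, TL29 (AT4G09010), a protein of the thylakoid lumen, had 494, 787 and 492 CPM and was likewise highest in library 2. The sources used here do not state whether strand was used in counting, so the share of reads that neighbouring genes may exchange is unknown.

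The 3 ferritin genes above 1 CPM differed between libraries in the same order. The ferritin FER1 had 587, 202 and 308 CPM, FER3 67.6, 30.8 and 41.9 CPM and FER4 49.1, 22.8 and 34.4 CPM, all in the order of library 1, then 3, then 2. The iron deficiency regulators bHLH38, bHLH39, bHLH100 and bHLH101 were near the limit of counting, with 1 count for bHLH38, bHLH39 and bHLH100 in library 1; they were lowest in library 1 and highest in library 2, with 0.0515, 1.37 and 0.535 CPM for bHLH100. BTS, a ligase that senses iron, had 57.7, 64.6 and 58.4 CPM. Of the 9 iron genes above 1 CPM, 4 were highest in library 1, 2 in library 2 and 3 in library 3. Of all genes of at least 10 CPM, 32.5%, 26.1% and 41.4% were highest in these libraries. The iron list as a whole had no common order. The list was added after FER1 was seen among the most variable genes.

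The steadiest genes of at least 100 CPM varied less than counting error alone would give. ENODL2 had 196.3, 195.8 and 196.1 CPM, a CV of 0.129%. EMB1865, a CRM-domain protein of chloroplast RNA splicing, had 215.5, 215.2 and 214.8 CPM and the chloroplast RNA helicase emb1138 (RH3) 521, 519.7 and 522 CPM. The remaining 7 of the 10 were EDA3, NARA5, DEG2, AT2G34620, CLPR1, GUN4 and AT5G53490, with CVs of 0.228% to 0.542%. Counting alone gives CVs of 0.979% to 1.96% for the 10 genes at this depth; they were picked as the smallest of many values. Among genes often used as references, ACT2 had a CV of 1.06%, below its counting CV of 1.12%. UBQ10, GAPC2 and EF1A-4 had CVs of 2.67%, 8.56% and 10.3%, above their counting CVs of 0.552%, 0.640% and 0.563%.

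Loci other than nuclear protein-coding genes took few counts. RNA was selected by its polyA tail, and the 18S ribosomal RNA locus AT3G41768 has 94.3% of its windows in another locus; the part of either in these shares was not tested. Protein-coding genes took 99.6%, 99.6% and 99.6% of the counts. Chloroplast loci took 0.0532%, 0.0261% and 0.0207% (Wilson 95% intervals of 0.0522% to 0.0543%, 0.0254% to 0.0268% and 0.02005% to 0.0214%), and 4 ribosomal RNA loci took 0.0608%, 0.0201% and 0.0212%. Both were highest in library 1, beyond counting error. ATCG00020, the highest chloroplast locus, had 164, 51.7 and 35.4 CPM and AT3G41768 601, 196 and 207 CPM. Of 397 noncoding RNA loci, AT4G13495 was highest with 343, 317 and 353 CPM, ahead of GUT15 with 90.4, 92.8 and 86.7 CPM.

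Promoter letters were compared between the 100 most abundant protein-coding genes and all 26711 with a full window, over the 250 bases before the annotated start. A motif was counted on both strands. The G-box CACGTG was held by 16 of the 100 windows, or 16%, and by 6.58% of all. The CCAAT box (CCAAT or ATTGG) was held by 63% and 46.1%, the I-box core (GATAAG or CTTATC) by 16% and 12.2%, and TATAAA (or TTTATA) by 40% and 47.7%. No motif here overlaps another in its letters. Annotated starts can lie upstream of the used start, so a match describes the letters of the window and no binding site. The window of LHCA4 is shown as the most abundant gene with a G-box, beside that of LHCB1.3, the most abundant antenna gene, with matches in capitals, at chr3:17495034-17495283 (minus strand) and chr1:10477635-10477884 (plus strand) in TAIR10.1, from RefSeq.
LHCA4: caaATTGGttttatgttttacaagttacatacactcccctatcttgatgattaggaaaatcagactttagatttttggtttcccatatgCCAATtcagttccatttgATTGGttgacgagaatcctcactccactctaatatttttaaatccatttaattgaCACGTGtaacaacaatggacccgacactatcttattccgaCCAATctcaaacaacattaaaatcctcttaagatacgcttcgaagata
LHCB1.3: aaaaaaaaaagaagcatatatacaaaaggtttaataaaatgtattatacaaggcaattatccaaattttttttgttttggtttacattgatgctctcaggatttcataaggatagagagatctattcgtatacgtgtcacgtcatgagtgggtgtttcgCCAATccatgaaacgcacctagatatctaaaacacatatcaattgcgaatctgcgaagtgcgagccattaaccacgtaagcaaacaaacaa

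LHCA4 holds a G-box and 4 CCAAT boxes in its window, and LHCB1.3 holds 1 CCAAT box and no G-box. Their levels were 7554 ± 425 CPM per kb and 18168 ± 798 CPM per kb. LHCA4 was picked for its G-box, and a relation between motifs and levels was not tested.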

How the data were processed

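RNA of entire rosettes was measured as polyA-selected mRNA with Illumina TruSeq Stranded libraries, all 9 samples of the series pooled for sequencing, per the labels' protocols. The deposited files hold raw counts per locus, which the authors made from reads aligned with TopHat2 (version 2) to TAIR10, with FastQC as quality check, per the submitters' processing notes. Which program counted the reads, whether it used strand, and what it did with reads matching several loci is not given in the sources used here.

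CPM was computed from each library's total over all loci in Python 3.11.15 with pandas 2.3.3. Levels of different genes were set side by side per kb of the longest annotated transcript, and alternatively of the coding sequence, in TAIR10.1 from RefSeq, in which 32835 of 33602 loci were found by locus name. Of the others, 279 were chloroplast or mitochondrial loci. These, and the 488 nuclear loci without a match, are given by their locus names. Shared sequence was measured as the percent of 50-base windows of a transcript that occur in another locus, and identities with Biopython 1.88. The spread was given as the SD and CV of 3 libraries and as the biological coefficient of variation from edgeR 4.0.16 (R 4.3.3), fitted to 1 group after edgeR's filter on low counts and checked on simulated data. Intervals are Wilson 95% intervals and, like the 3-count limit, cover counting error only, since reads without molecular identifiers are not independent molecules.

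No test between groups was run. The labels name no batch. The gene lists and families were chosen with earlier results of these data known, and the iron, copper, cuticle, salicylic acid and ribosomal protein lists were added after the values were seen. Genes named are those of the lists, the 25 most abundant, the 10 highest per kb, the most abundant of other locus classes, and the 10 most variable and 10 steadiest above a minimum of 10 and 100 CPM, besides members singled out of these after their values were seen. The 6 mutant libraries were not used.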

Additional observations from a re-analysis of the deposited data

How the results depend on the processing

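Of 52 values recomputed under alternatives for 9 results, 42 stayed within the tolerance (1.5 times for a count of genes, 10 percent for a CV, 1 SD for a share) and 10 moved. The 10 most abundant genes took 16.8% of counts, in place of 13.2%, when family members with proteins at least 95% identical were summed as 1 gene. The median CV was 9.59% for genes of at least 1 CPM and ranged from 4.06% to 7.70% with a library left out, lowest without library 3. The number of genes at least 2-fold apart was 750 at a minimum of 1 CPM, and from 21 to 74 with a library left out. For a given gene, leaving a library out cannot raise the ratio of the highest to the lowest. These lower counts can therefore be compared with each other but not with the count over all libraries. The common biological coefficient of variation ranged from 0.0695 without library 3 to 0.143 without library 1, and the square root of the median gene-wise DESeq2 (version 1.42.0) dispersion was 0.0622. The cause of the shifts with a library left out was not tested. TMM factors of 0.986 to 1.02 and median-of-ratios size factors did not move the number of genes of at least 1 CPM, the median CV or the 2-fold count past the tolerance, nor did median-of-ratios factors the biological coefficient of variation; other results were not rerun with them.

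No paired analysis was possible because only the wild-type group was used, so that no second group shares its replicate numbers. Depth limits statements on genes under 1 CPM: the median CV of the 5369 genes with counts but a mean under 1 CPM was 68.6%, and levels of near-identical genes are uncertain, since the handling of shared reads is not known.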
